A study of Mus musculus with 8 samples.

Results

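The nuclear genes for the subunits of the mitochondrial respiratory chain were followed in sorted intestinal intraepithelial lymphocytes. Genes were taken by symbol: a gene with at least 1 protein-coding transcript whose symbol begins with Nduf, Uqcr, Cox4 to Cox8 or Atp5, or is Sdha, Sdhb, Sdhc or Sdhd, without the symbols that end in a pseudogene suffix. This gave 92 of the 52661 genes in the deposited tables. There were 36 genes of complex I, 7 complex I assembly factors with the stem Ndufaf, 4 of complex II, 8 of complex III, 20 of complex IV and 17 of ATP synthase. Ndufa4 and its relative Ndufa4l2 were placed with complex IV, where the Ndufa4 protein is known to sit. Atp5s and Atp5sl stand with ATP synthase by their symbols, although both are better known as assembly or coupling factors than as core subunits. A further 6 genes with matching symbols, all pseudogenes, were left out (Atp5k-ps2, Atp5l-ps1, Atp5l-ps2, Atp5l2-ps, Ndufab1-ps and Uqcrh-ps1).

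The cells were CD45+ intraepithelial lymphocytes of C57BL/6 mice, isolated by flow sorting and kept in RPMI medium with serum for 24 h. One group of 4 libraries received osteopontin, a secreted phosphoprotein that binds integrins and CD44, at 2 µg/ml. The other group of 4 libraries was null-treated, with 0 µg/ml. The libraries of each group are named 1, 2, A and B, and no gene was altered in either group as far as the labels say. The labels give no age and leave unsaid whether a group's libraries were made from different mice or cultures, and the p-values therefore describe the spread between these libraries alone.

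Oxidative phosphorylation passes electrons from NADH through complex I, or from succinate through complex II, to ubiquinone, on to cytochrome c through complex III and to oxygen through complex IV. Complexes I, III and IV pump protons across the inner mitochondrial membrane, and ATP synthase uses the gradient to make ATP. Most subunits are nuclear genes whose proteins are imported, while a small set of core subunits is encoded by mitochondrial DNA, so the complexes draw on both genomes. Lymphocytes change their use of the chain with activation and residence in a tissue.

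Estimated reads per library ran from 49108969 to 71399847, and 3 reads, the floor used here for a count of 0, were worth 0.0420 to 0.0611 CPM (read counts scaled to the library's size), counting error only. The respiratory chain genes together took 0.456% to 0.536% of the reads. Their share of the summed TPM, a level corrected for transcript length, was 1.08% ± 0.0502 (SD, n = 4) with osteopontin and 1.097% ± 0.0505 (SD, n = 4) in the null-treated libraries. Markers of intraepithelial T cells summed to 7138 to 7991 CPM with osteopontin and 7038 to 7703 CPM without, so the labelled cell type carried its markers in all 8 libraries. B and plasma cell markers summed to 4223 to 9139 and 3824 to 10064 CPM, enterocyte markers to 318 to 374 and 305 to 376 CPM, and macrophage and dendritic cell markers to 87.2 to 189 and 96.5 to 178 CPM. Cdh1 alone held 245 to 314 CPM of the enterocyte sum. Fabp2 had 10.3 CPM in osteopontin B and 14.3 CPM in null B, against 0.870 to 2.24 CPM in the other libraries. Apoa4 had 4.91 and 8.71 CPM in these B libraries, against 0 to 0.280 CPM. Fabp1, Apoa1, Alpi, Krt20 and Lgals4 were also highest in both B libraries, while Cdh1, Epcam, Mttp, Vil1 and Sis did not split that way. Endothelial markers summed to 132, 130 and 134 CPM in osteopontin B, null 2 and null B, and to 59.1 to 84.4 CPM in the other libraries. Cdh5 had 15.8, 16.2 and 14.6 CPM in those libraries, against 0.176 to 2.19 CPM, while Pecam1 and Plvap did not split that way. Muscle markers summed to 0.631 to 2.26 and 1.40 to 3.23 CPM, and red cell markers to 0 to 0.672 and 0.252 to 1.97 CPM. Of the null-treated libraries, 1 and A had high fibroblast markers (325 and 179 CPM), and the remaining 6 libraries had 7.49 to 28.5 CPM. One library stood apart from its label in a set of inducible genes: Fos, Fosb, Jun, Egr1, Hspa1a and Hspa1b summed to 30.1 to 40.3 CPM in osteopontin libraries 1, 2 and A, to 168 CPM in the library labelled osteopontin B, and to 145 to 189 CPM in the null-treated libraries. The calls and the median fold change of the chain are therefore given with and without it. In bulk libraries such as these, fewer cells of a type and less RNA per cell cannot be told apart.

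The promoters are shown first, because respiratory chain genes are textbook targets of the nuclear respiratory factors NRF-1 and NRF-2 (an ETS-family factor, GABP). Windows of 250 bases before the RefSeq gene start were read from RefSeq (build GRCm38.p6), in which 73 of the 92 genes matched by symbol, with 78 windows. The NRF-1 letters, GCGCA and GCGC parted by any 1 base, were found, reading both strands, in 15 of the 78 windows (19.2%), against 3.74% of all 32851 windows of that length. The ETS letters CCGGAAG were found in 13 windows (16.7%, against 6.91% of all). The SP1 letters GGGCGG were found in 35.9% of the windows of these genes and 32.7% of all, and TATAAA in 8.97% and 12.4%. The RefSeq and GENCODE starts differ for some genes and neighbouring genes reach into some windows, so each stretch shown is the part of its window nearest the start that holds no GENCODE exon of any gene. The 4 stretches, picked after the matches were counted, are of Cox6a1 with a pair of NRF-1 matches, Ndufa11 with an NRF-1 match, Uqcrh with an ETS match, and Cox6b2, a testis-type subunit with neither. They lie at chr5:115348982-115349129 (minus strand, 148 bases), chr17:56717686-56717761 (plus strand, 76 bases), chr4:116075072-116075268 (minus strand, 197 bases) and chr7:4753095-4753225 (minus strand, 131 bases). Each is written 5′ to 3′ towards its gene, and capitals mark the NRF-1 and ETS letters on either strand.
Cox6a1: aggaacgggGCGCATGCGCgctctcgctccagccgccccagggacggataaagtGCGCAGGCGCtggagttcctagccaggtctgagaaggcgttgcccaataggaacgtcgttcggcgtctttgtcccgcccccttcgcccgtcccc
Ndufa11: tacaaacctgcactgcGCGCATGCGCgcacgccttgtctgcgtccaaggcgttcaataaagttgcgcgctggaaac
Uqcrh: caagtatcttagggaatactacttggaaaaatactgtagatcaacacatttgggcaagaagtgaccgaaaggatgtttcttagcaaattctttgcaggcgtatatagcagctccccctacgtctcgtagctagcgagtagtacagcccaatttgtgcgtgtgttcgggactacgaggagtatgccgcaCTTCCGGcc
Cox6b2: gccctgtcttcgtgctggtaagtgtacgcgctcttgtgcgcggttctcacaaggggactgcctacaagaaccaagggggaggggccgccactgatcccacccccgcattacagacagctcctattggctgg
Uqcrh and Ndufa11, the most abundant gene of complex III and the least abundant subunit gene of complex I, each held 1 match. A match of letters describes the window and shows no binding.

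Nearly all of the chain was transcribed in these cells, at levels well above the typical coding gene. Of the 92 genes, 87 had a mean of at least 1 TPM over the 8 libraries, with a median of 102 TPM. Coding genes with at least 1 TPM numbered 11539 and had a median of 25.9 TPM, a value that 74 of the 87 exceeded. At least 100 TPM was reached by 46 of the 87 (52.9%), against 13.8% of the coding genes. By complex, the median level was 193 TPM for ATP synthase, 171 TPM for complex IV, 106 TPM for complex III, 82.7 TPM for complex II and 82.3 TPM for complex I, and 13.1 TPM for the complex I assembly factors. The 7 assembly factors, which help build complex I and do not stay in it, reached 26.8 TPM at most.

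**Figure D1:**
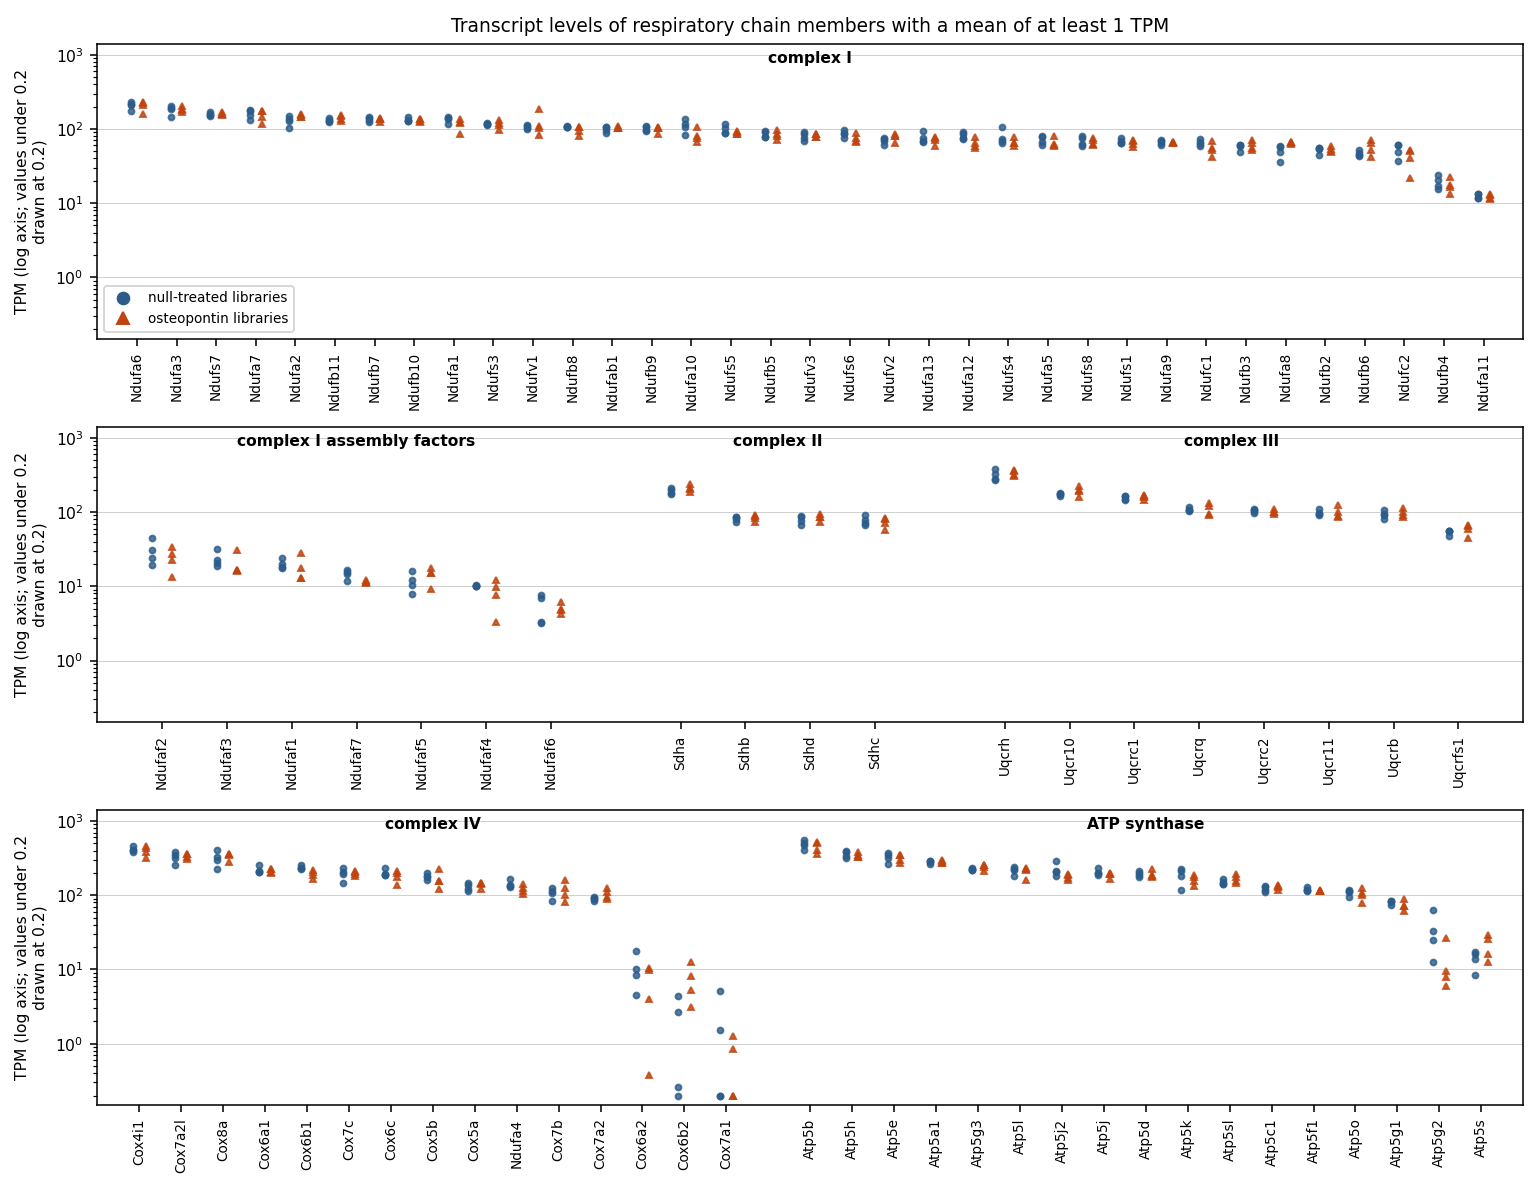
Each point is the TPM of 1 gene in 1 library (log axis), with circles for the 4 null-treated and triangles for the 4 osteopontin libraries, and genes ordered by mean level within each complex. Median levels run from 82.3 TPM in complex I to 193 TPM in ATP synthase, and the assembly factors lie lower. Cox6a2, Cox6b2, Cox7a1 and Atp5g2 spread widely between libraries.

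Within complex I the levels spread 16.6-fold. Ndufa6, an accessory subunit, was the most abundant at 221, 233, 209 and 157 TPM with osteopontin and 230, 219, 209 and 173 TPM in the null-treated group, in the order 1, 2, A and B that is kept throughout. Ndufa11, an accessory subunit of the membrane arm, was the least abundant at 13.1, 11.8, 11.4 and 13.4 TPM with osteopontin and 11.6, 13.2, 11.8 and 13.3 TPM without. Both groups overlapped for either gene. Among the assembly factors Ndufaf2 led, with 27.1, 22.7, 33.4 and 13.2 TPM with osteopontin against 24.1, 30.8, 19.3 and 44.1 TPM, and Ndufaf6 came last at 5.17 TPM ± 1.67 (SD, n = 8), of which 2.25 TPM lay on coding transcripts. The groups overlapped for both.

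Complex II, the succinate dehydrogenase of the citric acid cycle, has no mitochondrially encoded subunit. Its flavoprotein gene Sdha stood at 203, 186, 211 and 242 TPM with osteopontin and 196, 175, 213 and 179 TPM without. The iron-sulfur subunit gene Sdhb averaged 82.9 TPM ± 6.68, and the membrane anchor genes Sdhc and Sdhd 74.8 TPM ± 10.9 and 82.4 TPM ± 9.15 (SD, n = 8 each). The levels of Sdhb, Sdhc and Sdhd thus lay within their spread of each other, and Sdha lay above all of them in all 8 libraries. Summed TPM of the complex was 452, 438, 439 and 482 with osteopontin and 426, 436, 421 and 433 without, and the groups did not overlap. Sdha itself averaged 210 TPM ± 23.4 and 191 TPM ± 17.3 (SD, n = 4 each), but its estimated reads gave a log2 fold change of -0.03 (95% interval -0.17 to 0.11). Of the Sdha level, 67.4% of the TPM and 92.3% of the estimated reads lay on coding transcripts.

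In complex III the hinge protein gene Uqcrh was highest at 324 TPM ± 40.2 and the Rieske iron-sulfur protein gene Uqcrfs1 lowest at 56.0 TPM ± 7.51 (SD, n = 8 each). In ATP synthase the catalytic beta subunit gene Atp5b had the highest level of the chain over all transcript types, with 510, 516, 361 and 411 TPM in the osteopontin libraries and 482, 558, 504 and 410 TPM in the null-treated ones. Osteopontin A was the lowest of the 8 and the groups overlapped. Counting coding transcripts only, Atp5b stood at 282 TPM, below Cox4i1 (380 TPM), Cox7a2l (334 TPM), Cox8a (326 TPM) and Uqcrh (310 TPM), so its place as the highest was lost. A single processed transcript of 343 bases held 143 TPM of its level. Atp5s was the least abundant gene under an ATP synthase symbol, at 17.4 TPM ± 6.85 (SD, n = 8).

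Complex IV is the complex with the most tissue-specific subunit forms, and in these cells the widely expressed form led in each pair with such a form. Cox4i1, the common form of the regulatory subunit, stood at 463, 435, 387 and 321 TPM with osteopontin and 412, 457, 412 and 386 TPM without, and took 99.96% of the Cox4i1 and Cox4i2 total. Cox6a1 took 96.3% of its pair, at 218 TPM ± 17.3 (SD, n = 8). Its heart and muscle relative Cox6a2 was present at 10.6, 9.89, 4.03 and 0.376 TPM with osteopontin and 17.8, 10.3, 8.54 and 4.48 TPM without. Cox6a2 was thus above 3 TPM in 7 libraries and lowest in osteopontin B. Of the 6 muscle markers, 5 stayed under 1 CPM in all 8 libraries. CPM is not corrected for length, so the 2 measures cannot be compared directly, and a muscle source of Cox6a2 was not tested. Cox6b1 took 97.9% of its pair, beside the testis-type Cox6b2 at 3.12, 8.24, 5.31 and 12.7 TPM with osteopontin and 0.257, 2.71, 4.41 and 0 TPM without. Cox6b2 was fitted 1.97 log2 units higher with osteopontin with an interval from -0.55 to 4.49, the groups overlapped, and its coding transcripts held only 1.79 of its 4.59 TPM.

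Cox7a2l, a relative of Cox7a2, averaged 334 TPM ± 39.9 and Cox7a2, the liver-type form, 97.5 TPM ± 14.1 (SD, n = 8 each). The muscle-type Cox7a1 was at 0.846, 0, 1.28 and 0 TPM with osteopontin and 5.09, 1.53, 0 and 0 TPM without. Its highest value stood in null library 1, 1 of the 2 libraries with high fibroblast markers, and the part of those cells in it was not tested. Cox8a averaged 326 TPM ± 54.3 (SD, n = 8), Cox8b was above 0 in 1 library at 0.172 TPM, and Cox7b2 and Cox8c were listed at 0 in all 8. Cox7b averaged 112 TPM ± 26.0 and Cox6c 190 TPM ± 27.2 (SD, n = 8 each), and on coding transcripts alone Cox7b held 53.8 TPM. Ndufa4 stood at 132 TPM ± 18.0 (SD, n = 8). Ndufa4l2, known as a gene induced by low oxygen, stood at 0, 0, 0 and 0.0821 TPM with osteopontin and 0.398, 0.299, 0.332 and 0.149 TPM without. The groups did not overlap for Ndufa4l2, but its counts were too low to pass the filter and it was not tested.

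The c-ring of ATP synthase is built from 1 protein made by 3 genes, which differ mainly in the import sequence that is cut off. Atp5g3 made up 69.9% of their summed level, Atp5g1 23.2% and Atp5g2 6.90%. Atp5g3 held 243, 255, 256 and 215 TPM with osteopontin and 220, 231, 224 and 216 TPM without. Atp5g2 held 8.03, 6.02, 26.1 and 9.45 TPM with osteopontin and 24.9, 12.4, 33.3 and 63.2 TPM without. Osteopontin A lay among the null-treated values for Atp5g2, the other 3 osteopontin libraries lay below all of them, and the order of the 3 genes by mean level held in both groups.

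**Figure D2:**
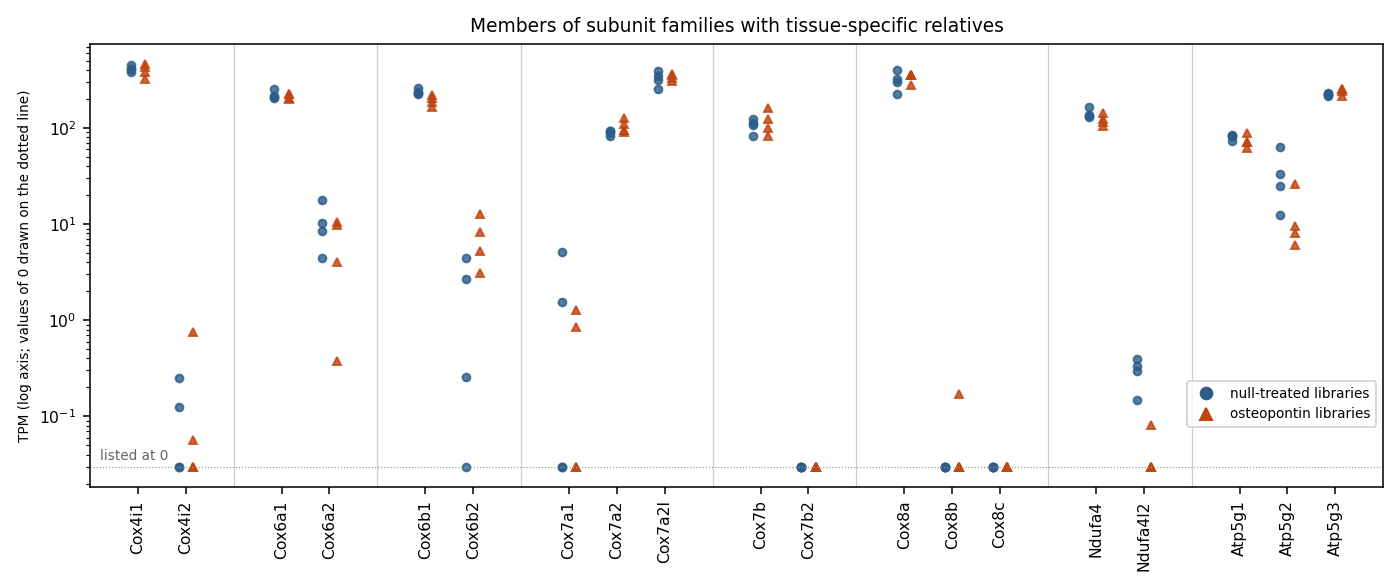
TPM of each gene in each library (log axis, values of 0 on the dotted line) for the subunit families with tissue-specific relatives, circles for null-treated and triangles for osteopontin libraries. Cox4i1, Cox6a1, Cox6b1 and Cox8a lie far above their relatives in all 8 libraries, and Atp5g2 lies below Atp5g1 and Atp5g3.

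Not all of this RNA was of the coding kind. Over the chain, 84.2% of TPM lay on protein-coding transcripts, 7.67% on retained-intron, 6.26% on processed and 1.91% on nonsense-mediated decay transcripts. The 82 genes with a mean of at least 10 TPM had a median coding share of 94.4%, with 7 of them under 50% (8.54%), against a median of 83.0% and 15.3% of genes under 50% among 8420 genes at that level. Ndufs4, a subunit near the NADH-oxidizing module, had the lowest coding share of those named here, at 18.0%, 17.8%, 12.1% and 16.1% with osteopontin and 13.6%, 22.6%, 16.2% and 8.75% without. Ndufv1, the subunit that binds NADH and flavin, had 56.2%, 48.4%, 51.0% and 21.01% with osteopontin and 65.8%, 53.7%, 54.3% and 58.0% without. Osteopontin B was the low library for Ndufv1, and its total level of 186 TPM there was the highest of the 8. TPM weighs short transcripts more than reads do: by estimated reads the mean coding share was 41.4% for Ndufs4 and 72.1% for Ndufv1, against 15.6% and 51.1% by TPM. Both genes were named for their coding share after their values were seen.

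With osteopontin no gene of the chain passed the test. The edgeR quasi-likelihood test covered 86 of the 92 genes, and Cox4i2, Cox7a1, Cox7b2, Cox8b, Cox8c and Ndufa4l2 were left out by the filter on low counts. None of the 86 was called higher or lower at an adjusted p of 0.05, and of all 18631 genes tested 0 were called (0%). The smallest edgeR adjusted p over the 86 was 1.00 after rounding. DESeq2 called 39 of all genes and limma voom 0, and without osteopontin B edgeR called 37, with none of the chain among them in any of the 3. At an unadjusted p under 0.05, 7 of the 86 were lower with osteopontin, where 2.08% of all genes were, and 0 were higher, where 1.85% of all genes were. In 3 of the 86 all osteopontin libraries lay below all null-treated ones, where 1.58% of all genes did, and in 0 they lay above, where 1.89% of all genes did. Over the 19 alternative analyses 3 to 8 genes of the chain had an unadjusted p under 0.05. Of the 83 genes with at least 5 CPM, 68 (81.9%) had a 95% interval inside a 1.5-fold change either way, and 81 (97.6%) had one inside a 2-fold change, against 76.1% and 93.7% of all genes at that level. The exceptions below 5 CPM were Cox6a2, Cox6b2 and Ndufaf6.

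The fitted fold changes leaned low. They were below 0 for 59 of the 86 genes (68.6%), against 49.9% of all genes tested, with a median of -0.07 (log2) against 0.00 for all. The lean differed between complexes. The fitted value was below 0 for 26 of 36 complex I genes (median -0.07), 6 of 7 assembly factors (median -0.20), 8 of 14 in complex IV (median -0.07) and 13 of 17 in ATP synthase (median -0.09). For complex II (2 of 4) and complex III (4 of 8) it was as often above as below 0, with medians of 0.01 each. No difference between complexes was tested.

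**Figure D3:**
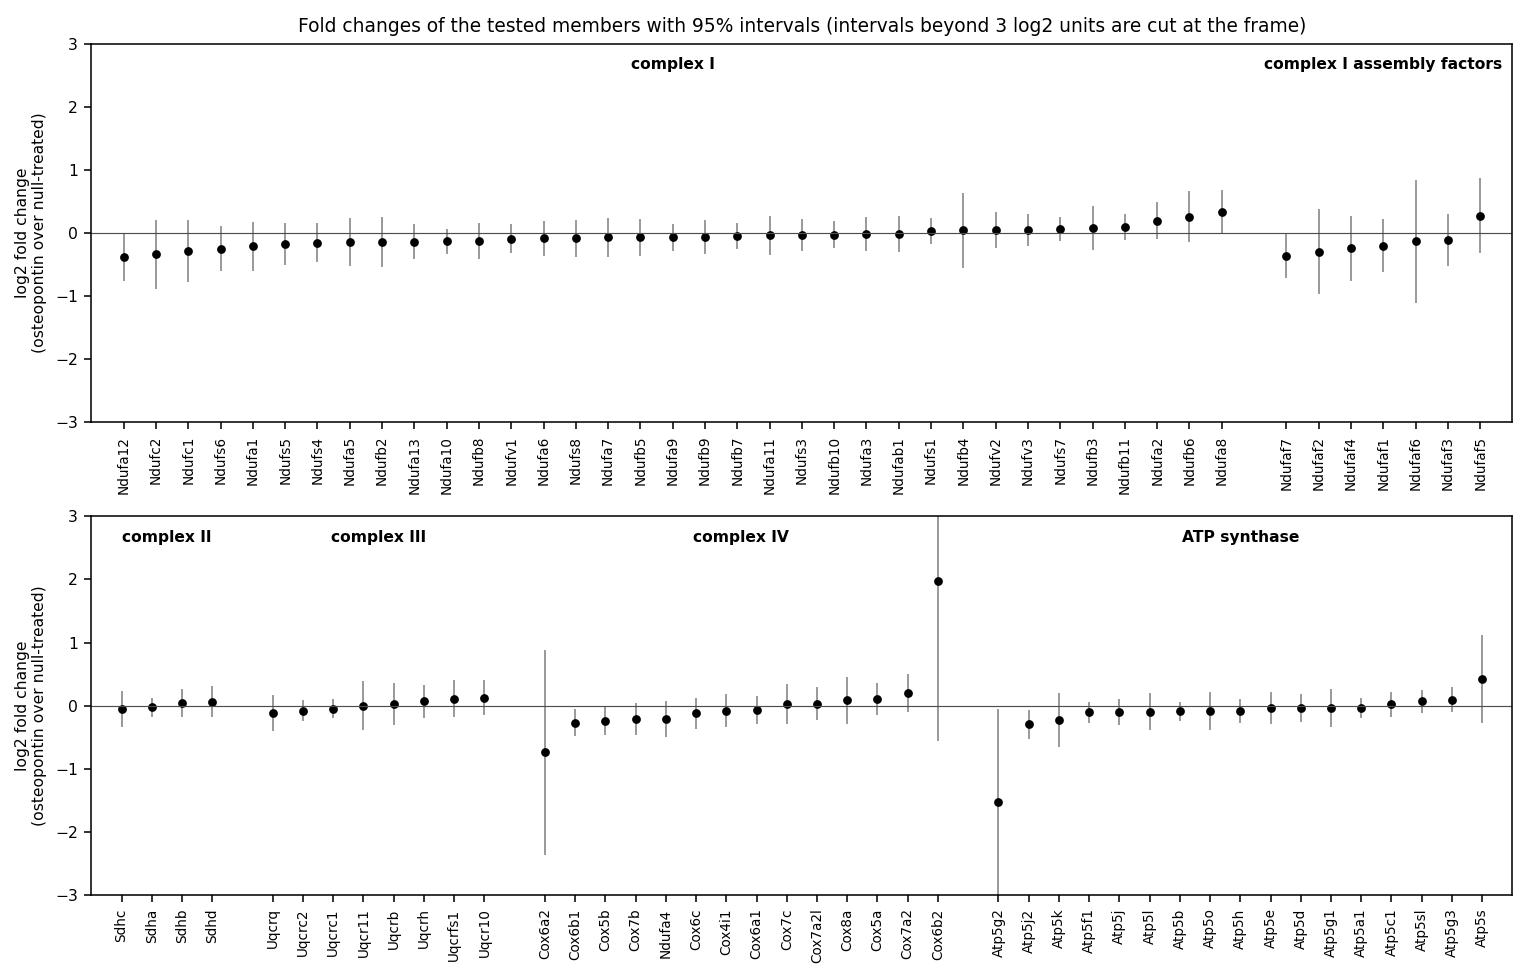
Fitted log2 fold change (osteopontin over null-treated) of 85 of the 86 tested genes with its 95% interval, ordered within each complex, with 0 marked by a line. Most points lie slightly below 0, most intervals cross it, and the intervals of Cox6a2, Cox6b2 and Atp5g2 are the widest.

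Ndufa12, an accessory subunit of complex I named after its values were seen, had 19.2, 13.6, 17.6 and 13.4 CPM with osteopontin and 18.9, 22.4, 18.8 and 23.1 CPM without, in the order 1, 2, A and B. Osteopontin 1 lay among the null-treated values, and the other 3 osteopontin libraries lay below all of them. Its log2 fold change was -0.38 (SE 0.171, edgeR adjusted p = 1.00). Ndufaf7, a methyltransferase that acts during complex I assembly, had 16.7, 18.2, 16.7 and 15.9 CPM with osteopontin against 22.9, 21.9, 17.4 and 24.96 CPM. Null A lay among the osteopontin values, and the log2 fold change was -0.37 (SE 0.157, edgeR adjusted p = 1.00).

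Sdhd had the smallest p of complex II, although its values overlapped fully: 61.6, 62.9, 53.1 and 65.0 CPM with osteopontin and 53.7, 64.4, 49.3 and 65.2 CPM without (log2 fold change 0.06, 95% interval -0.17 to 0.29). In complex III that place went to Uqcrc2, a core protein of the complex, with 108, 107, 114 and 96.1 CPM against 111, 108, 112 and 119 CPM (log2 fold change -0.08, 95% interval -0.23 to 0.07). Osteopontin A was above 3 of the 4 null-treated libraries and osteopontin B was the lowest. For both genes a change of 1.5-fold lay outside the interval.

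Cox6b1, a small subunit of complex IV on the intermembrane side (chromosome 7, 30616861 to 30626151, minus strand, GRCm38), had 45.1, 53.9, 53.8 and 47.9 CPM with osteopontin and 59.7, 61.6, 57.8 and 62.6 CPM without. The groups did not overlap. Its log2 fold change was -0.27 (SE 0.0924, edgeR adjusted p = 1.00). Atp5j2, the f subunit in the membrane part of ATP synthase (chromosome 5, 145183698 to 145192062, minus strand), had 58.3, 67.3, 56.9 and 61.2 CPM with osteopontin and 73.6, 69.5, 67.5 and 88.6 CPM without. Those groups did not overlap either, with osteopontin 2 just under null A, and the log2 fold change was -0.30 (SE 0.101, edgeR adjusted p = 1.00). An unadjusted p under 0.05 was also found for Cox5b (log2 fold change -0.24) and Atp5g2 (-1.53), named for it after their values were seen, and in both the groups overlapped. Among genes fitted higher the smallest p was that of Ndufa8, an intermembrane-space subunit of complex I (log2 fold change 0.33, 95% interval -0.01 to 0.66).

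The chain deviated most in 2 libraries. The deviation of each gene from its own mean over the 8 libraries (log2 CPM, 83 genes with at least 5 CPM) had a median of -0.12 in osteopontin B, where 60 of the 83 lay below their mean, and of 0.12 in null 2, where 73 of the 83 lay above. In the other 6 libraries the median lay between -0.04 and 0.03. Over all 10616 genes at that level no library's median passed 0.02 in size. Between these 2 libraries complex IV had the widest swing, at -0.19 in osteopontin B and 0.18 in null 2, and complex III was highest in osteopontin 2, at 0.19.

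Without osteopontin B the median fold change of the chain was -0.04, with 48 genes fitted lower and 39 higher, and 3 genes had an unadjusted p under 0.05. Without null 2 the median was -0.03, with 52 lower and 34 higher. Without both of these libraries, an alternative chosen after the data were seen, it was 0.01, with 41 lower and 45 higher. They were the lowest osteopontin and the highest null-treated library by this same measure, so leaving them out was bound to raise the median. With any 1 of the other libraries left out, 58 to 69 genes were fitted lower and 18 to 29 higher, with medians of -0.09 to -0.05. Taking out osteopontin B alone left a median of -0.003 in ATP synthase and -0.08 in complex IV, and taking out both B libraries left -0.02 and -0.06, so nearly all of the lean of ATP synthase was gone without that library. Without osteopontin B and null 2, complex IV and ATP synthase had medians of 0.05 and 0.02. The inducible gene sum was 168 CPM in osteopontin B and 165 CPM in null 2, where the chain deviated in opposite directions. It was 145 to 189 CPM in the other null-treated libraries, where the chain deviated little. Endothelial markers were high in osteopontin B, null 2 and null B, where the chain's median deviation was -0.12, 0.12 and -0.002. A link of the inducible genes or the endothelial markers with the chain was not tested.

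Short genes as a class deviated in the same 2 libraries. The chain's transcripts are short, with a median length of 721 bases against 2241 for all genes with at least 5 CPM, and 58 of the 83 were under 1000 bases. The 1134 other genes under 1000 bases had a median deviation of -0.07 in osteopontin B and 0.09 in null 2, and a median fold change of -0.04, with 58.8% fitted lower. The 58 chain genes of that length had -0.15, 0.14 and -0.07, with 69.0% fitted lower. The longer chain genes deviated too: the 19 of 1000 to 2000 bases had -0.04, 0.12 and -0.07 in the same order, against -0.01, 0.03 and -0.02 for other genes of that length. The 6 of 2000 to 4000 bases had -0.15, 0.11 and -0.03, with 83.3% fitted lower, against 0.01, 0.01 and 0.00 with 49.01% for other genes. Genes over 4000 bases had a median fold change of 0.03. From short to long, the chain's deviation was thus 0.14, 0.12 and 0.11 in null 2, and -0.15, -0.04 and -0.15 in osteopontin B. The longest range held only 6 chain genes, and the part of transcript length was not tested.

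**Figure D4:**
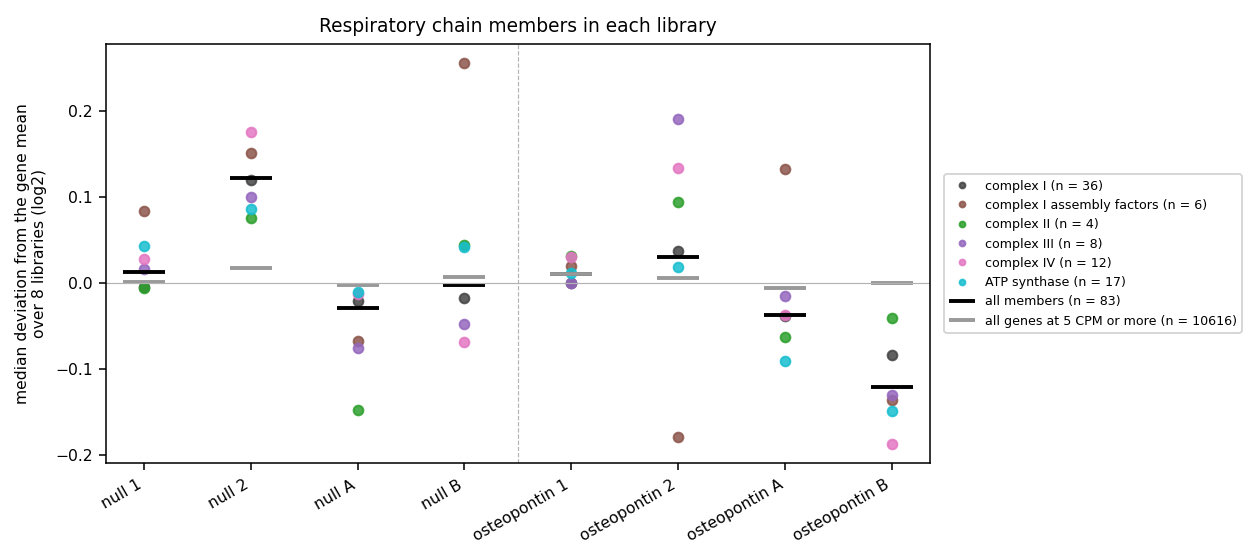
Median deviation (log2) of each complex's genes from their own mean over 8 libraries, 1 column per library, with black bars for all 83 chain genes and grey bars for all 10616 genes. The black bar is highest in null 2 (0.12) and lowest in osteopontin B (-0.12), while the grey bars stay near 0.

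The mitochondrially encoded subunits, the partners of these proteins in complexes I, III, IV and ATP synthase, were fitted lower in 12 of 13 cases, with a median log2 fold change of -0.40. None was called by edgeR, and 7 of the 13 had an unadjusted p under 0.05, all lower, where 2.08% of all genes did. The 13 tended to vary together: osteopontin B had the lowest TPM of the 8 libraries for all but mt-Nd3. They therefore do not count as 13 separate results. The 12 of 13, the 7 of 13 and the median include osteopontin B and were not worked out without it. In osteopontin 1, 2 and A mt-Nd1 had 981, 984 and 1039 CPM, among null-treated values of 887, 1057, 1092 and 1802 CPM. In 3 of the 13 all osteopontin libraries lay below all null-treated ones, where 1.58% of all genes did. One was mt-Cytb, with 1291, 1382 and 1626 CPM in osteopontin 1, 2 and A against 1658 to 2443 CPM. The ratio of summed mitochondrial to summed nuclear TPM in complex III, which has the single mitochondrial subunit mt-Cytb, was 1.71, 1.66, 2.17 and 1.60 with osteopontin and 2.22, 2.37, 3.01 and 3.51 without. All osteopontin values lay below all null-treated ones, with osteopontin A just under null 1. In complex I the ratio was 2.36 ± 0.392 against 2.97 ± 0.637, in complex IV 5.34 ± 0.767 against 6.81 ± 0.770, and in ATP synthase 2.64 ± 0.452 against 3.39 ± 0.647 (SD, n = 4 per group), and in these 3 the groups overlapped. Osteopontin B had the lowest ratio and null B the highest in each of the 4 complexes. Without osteopontin B the osteopontin mean was 2.51, 1.85, 5.61 and 2.78 for complexes I, III, IV and ATP synthase. Summed nuclear levels moved less: complex III stood at 1155 TPM ± 72.8 with osteopontin and 1104 TPM ± 70.5 without (SD, n = 4 each).

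**Figure D5:**
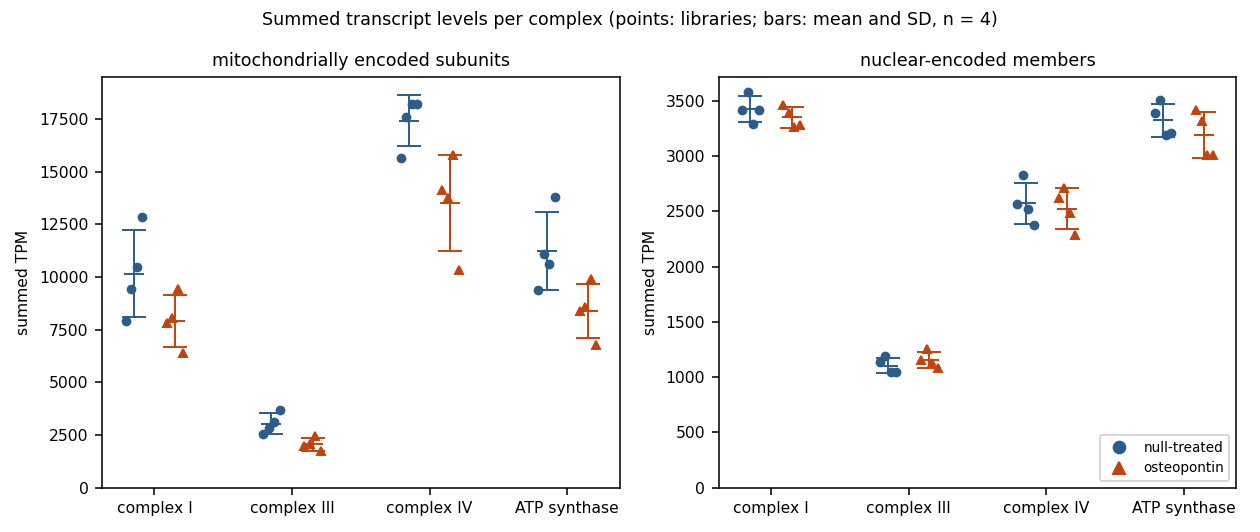
Summed TPM of the mitochondrially encoded subunits (left) and of the nuclear genes (right) for 4 complexes, with 1 point per library and bars for the mean and SD (n = 4 per group). The osteopontin means lie below the null-treated means on the left, while the nuclear sums of the groups overlap in all 4 complexes.

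Genes that work beside the chain gave no calls either, in lists chosen by function. Other assembly factors of the complexes were fitted lower in 27 of 47 (median log2 fold change -0.03). Genes for electron carriers and quinone synthesis were lower in 9 of 16 (median -0.05), citric acid cycle enzymes in 13 of 18 (median -0.04) and regulators of mitochondrial biogenesis in 10 of 16 (median -0.03). The gene with the smallest p was Sdhaf3, a complex II assembly factor, in the first list (log2 fold change -0.80), and Etfa, which passes electrons from fatty acid oxidation to the quinone pool, in the second (-0.27). Idh3a, a subunit of the NAD-linked isocitrate dehydrogenase (-0.13), and Gabpb1, the beta subunit of NRF-2 (-0.17), held that place in the other two lists. None of the 4 passed the test.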

How the data were processed

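RNA of 8 libraries, 4 per group, was sequenced. Each deposited table lists estimated counts (reads per transcript, not always whole) and TPM for 1 library. Salmon made both, per the submitters' processing notes, its version and genome build being not given in the sources used here. Of 133618 transcripts, 98.2% carried an identifier of GENCODE mouse release 21 (GRCm38) with the same length, which gave the positions. Summing the deposited estimated counts over each gene's transcripts and rounding gave the counts tested, and the authors' TPM were added up in the same way for levels and transcript shares. Salmon divides reads between near-identical sequences, so genes with processed pseudogenes (among them Ndufab1, Uqcrh and Atp5l) have uncertain levels.

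Groups were compared with edgeR 4.0.16 (R 4.3.3): filterByExpr with a minimum count of 10, TMM scaling, robust quasi-likelihood F tests (two-sided), and Benjamini-Hochberg adjustment over all 18631 genes tested. Standard errors and 95% intervals came from the fitted F statistics. Deviations used log2(CPM + 0.5). The floor was 3 reads. Alternatives were DESeq2 1.42.0, limma 3.58.1 (voom), other scaling, no filter, coding transcripts only, a replicate block or naming covariate, and libraries left out. The fitting script was tested on simulated data. Replicate libraries differed by more than sampling noise (lowest median chi-square 12.5).

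The members and lists were chosen with earlier results of these data known. Genes named for a test were, per complex, the one with the smallest p, plus every gene with at least 5 CPM whose groups did not overlap. Genes named for level were the most and least abundant per complex, the Sdh genes and the families with tissue-specific relatives. From each list of neighbouring genes the one with the smallest p was named. One gene stayed in every fit and count, but its own values are not reported here.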

Additional observations from a re-analysis of the deposited data

Results flagged for a closer look

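In 5 of the 81 sets of 4 libraries examined, 1 library lay far from the other 3. Chance gives such a gap in about 1 in 20 groups, which is to be read beside that count. Cox8a had 283 TPM in osteopontin B and 353 to 359 TPM in the others. Atp5g2 had 26.1 TPM in osteopontin A and 6.02 to 9.45 TPM in the others. The remaining 3 were genes near 0: Cox4i2 at 0.747 TPM in osteopontin 1 (0 to 0.0571 TPM in the others), and Cox8b at 0.172 TPM and Ndufa4l2 at 0.0821 TPM in osteopontin B (0 in the others).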

How the results depend on the processing

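No gene of the chain was called under any of the 19 alternatives, and its smallest adjusted p over them was 0.277 (DESeq2). The median log2 fold change of the chain stayed below 0 in 18 of the 19 and ran from -0.09 to -0.03 over those; without osteopontin B and null 2 together, chosen after seeing the data, it was 0.0105. Sdhd turned to -0.10 without null 1 and A, and ran from -0.011 (without null A) to 0.119 (without null B) when 1 library was left out; the cause was not tested. The other 4 genes tested by name kept their direction under all 19. The count of all genes called, 0 in the main analysis, was 39 with DESeq2 (12 higher, 27 lower), 4 with no filter, 49 without both B libraries, 34 without osteopontin B and null 2, and 0 to 37 when 1 library was left out, with the 37 without osteopontin B (2 higher, 35 lower); at an unadjusted p under 0.05 the main analysis had 732. With only coding transcripts counted the median level was 88.3 TPM. With the replicate name as a replicate block, 0 genes of the chain were called and the median was -0.06. Same-name correlations were 0.0712 (1), 0.0485 (2), 0.0437 (A) and 0.123 (B), and only B passed the 0.1 set for pairing. Still, 7 of 8 libraries correlated best with their own name. B and plasma cell markers summed in the same order by name (B, 1, 2, A) in both groups. Both are a hint from the data and not from the design. Depth limits the genes under 5 CPM, whose intervals span several-fold.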
